A study of Mus musculus with 6 samples.

Results

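The transcripts described are 46 genes that license origins of DNA replication and run the replication fork, chosen by gene name for their known roles. All 46 were found among the 23420 gene symbols of each library, and all 46 passed the filter on low values that left 11844 genes for testing. B cells were purified with beads from spleens of male MRL/lpr mice aged 5 to 7 weeks, a lupus-prone strain whose Fas gene carries the lpr mutation. Every library came from TLR9-/- animals with an unaltered TLR7, so both groups shared the TLR9 deficiency and the lpr background, and libraries from mice with TLR9 were not analysed here. Cells were cultured for 4 h with CL097, a small-molecule agonist of TLR7, at 5 µg/ml or were left unstimulated, giving 3 libraries per group with replicate numbers 1 to 3. Values are log2 CPM (counts of reads of a gene scaled to a common library size) as deposited, shown here as CPM, and differences are CL097 minus unstimulated within a number.

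DNA is copied once per cell cycle because origins are licensed before S phase and fired within it. The origin recognition complex (ORC), with Cdc6 and Cdt1, loads the ring-shaped MCM2-7 helicase onto DNA in G1. Cdc45 and the GINS complex then join MCM2-7 to form the active helicase, polymerase alpha-primase starts each strand, polymerases delta and epsilon extend it with the Pcna clamp, and Fen1 and Lig1 join the Okazaki fragments. Resting B cells lie outside the cycle in G0 and take up this machinery as they leave it, and E2F factors, released from RB proteins, are known to switch on many of its genes.

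The purified cells carried B cell transcripts at high level. The 10 B cell markers summed to 14311 to 15939 CPM unstimulated and to 9530 to 11475 CPM with CL097. Cd74 made up most of these sums, at a mean of 8204 CPM unstimulated and 7362 CPM with CL097. Its values were equal in both libraries of number 1 (7745 CPM) and of number 2 (7891 CPM). In number 3 they were 8977 CPM unstimulated and 6450 CPM with CL097, so the means differ by that number alone. Cd79a had a mean of 1880 CPM unstimulated and 452 CPM with CL097. Of 10 B cell markers 6 fell (60.0%). Marker counts here stand beside 25.9% of all tested genes called higher and 25.8% called lower. Without pairing by number those shares were 24.0% and 23.6%. T cell markers summed to 231 to 272 CPM unstimulated and 86.6 to 119.6 CPM with CL097, a fall set mainly by Cd2, while of the 7 tested 2 rose, 2 fell and the median log2 fold change was 0.14. Cd2 and Lck held most of these sums, with Cd2 at a mean of 190 CPM unstimulated and 29.5 CPM with CL097. Lck stood at 52.5 CPM unstimulated and 59.8 CPM with CL097. Cd3d, Cd3e and Cd3g lay under 1 CPM in all 6 libraries, so the sums give no measure of T cell content. Erythroid markers set number 1 apart, since the 13 listed genes in the files summed to 50.4, 993 and 1132 CPM unstimulated and 77.7, 1700.0 and 2791 CPM with CL097 in numbers 1, 2 and 3. Of 11 that could be tested, 9 rose, with a median log2 fold change of 1.44; without pairing by number 0 were called. Hba-a1 and Hba-a2 sat at the lowest value of the files in every library, so the list rests on genes such as Slc4a1 and Alas2. Nucleated erythroid precursors divide, and 22 genes of G2 and mitosis summed to 1007, 839 and 785 CPM unstimulated and 719.9, 1662 and 2246 CPM with CL097. Mki67, which was not called, held a large part of these sums. It stood at 215, 278 and 223 CPM unstimulated and 125, 657 and 918 CPM with CL097. Monocyte and macrophage markers summed to 122 to 514 CPM unstimulated and 91.2 to 308 CPM with CL097, lowest in number 1 in both groups, and neutrophil markers to at most 65.6 CPM. Of 11 tested monocyte markers 4 fell and 0 rose, and 0 fell without pairing. The part of these cell types in the results below was not tested. In bulk RNA a change in the number of cells of a type and a change in RNA per cell cannot be told apart.

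Replication genes were called higher after CL097 more often than lower. Of 46 members 26 rose, 4 fell and 16 were not called at an adjusted p under 0.05 with an absolute log2 fold change over 0.5 (limma with the replicate number as a block, Benjamini-Hochberg adjustment over all tested genes). These are 56.5% and 8.70% of the members, beside 25.9% of all tested genes called higher and 25.8% called lower. The median log2 fold change of the members was 0.58, against 0.0018 over all tested genes. The members with the most increased transcripts were Cdc6, Orc1, Pold2, Mcm10, Gins1 and Ccne2, and those that fell were Rfc1, Rfc2, Pold1 and Rpa1. In 29 members every CL097 library lay above every unstimulated one, which 33.4% of tested genes did, and in 4 every CL097 library lay below, against 32.4%. Of the 16 members not called, Orc3, Pola2, Pold3 and Rpa2 had an adjusted p under 0.05 but a smaller fold change, and Lig1 had a fold change over the limit with an adjusted p of 0.161.

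**Figure D1:**
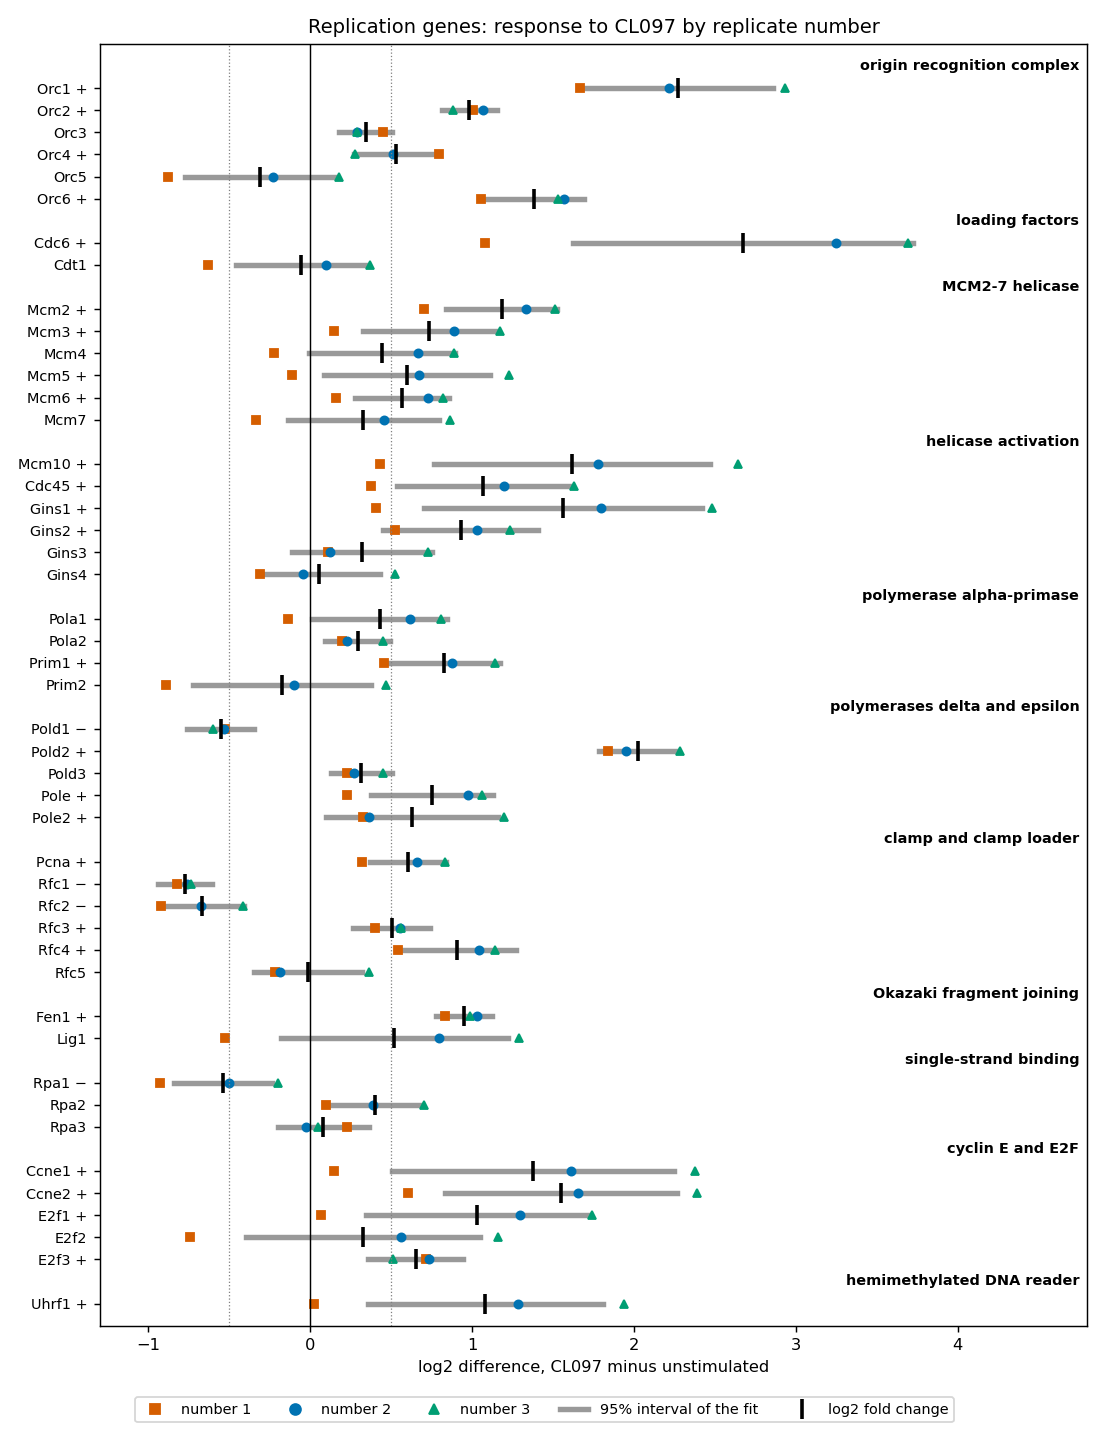
Log2 difference (CL097 minus unstimulated) of the 46 replication genes, in rows grouped by role; symbols give each replicate number, black ticks the fitted log2 fold change, grey bars its 95% interval, dotted lines the limit of 0.5, and + or − a call higher or lower. Number 1 lies to the left of numbers 2 and 3 for 40 of the 46 genes, most widely for Cdc6.

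The size of the response differed between replicate numbers. In number 1, 31 of 46 members had a higher value with CL097 than without, in number 2 37 did and in number 3 42 did, and the median within-number differences were 0.21, 0.67 and 0.89. Number 1 gave the smallest of the 3 differences for 40 members (87.0%), as it did for 31.9% of all tested genes. With number 1 left out of both groups 31 members were called higher and 3 lower, of which 25 and 3 were also called with all libraries; 26.4% and 26.7% of all tested genes were called. The 6 gained were Mcm4, Mcm7, Pola1, Lig1, Rpa2 and E2f2, and the 2 lost were Orc4 and Rpa1. With a number left out fewer pairs remain, so p-values of such fits rest largely on the variance trend shared over genes. They do not measure the spread between pairs alone. With number 2 left out 21 members rose and 4 fell (23.8% and 23.2% of tested genes), and with number 3 left out 18 rose and 4 fell (24.1% and 23.3%). Without pairing by number the same 26 and 4 members were called, beside 24.0% and 23.6% of tested genes. Without the filter on low values 9 members rose and 2 fell (19.6% and 4.35%), beside 14.0% and 13.6% of the 17935 genes then tested.

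A binding word of E2F factors was common at the start sites of these genes. RefSeq promoter windows of GRCm38.p6, 250 bases before to 50 after a start, were held for 38 members, and 18 of them (47.4%) contained TTTCCCGC, TTTCGCGC, TTTGCCGC or TTTGGCGC on either strand, beside 4.82% of 8861 tested genes with a window and 2.6% of all 27025 genes. Words on opposite strands can overlap. The 18 members with a word had a median log2 fold change of 0.51, 9 higher and 1 lower, and the 20 without had 0.87, 13 higher and 2 lower, so members of both kinds were among those that rose. The word stands in capitals in the stretches of the 7 members that were called and carry it before the start, with flanking bases in lower case and at most 30 bases from a GENCODE exon of the gene.

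Orc1, chr4:108579402-108579452, plus strand: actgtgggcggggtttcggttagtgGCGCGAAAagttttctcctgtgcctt
Cdc6, chr11:98907988-98908045, plus strand: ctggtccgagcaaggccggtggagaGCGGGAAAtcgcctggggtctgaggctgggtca
Mcm5, chr8:75109331-75109392, plus strand: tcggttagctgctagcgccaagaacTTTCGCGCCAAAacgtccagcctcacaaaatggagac
Mcm6, chr1:128359720-128359840, minus strand: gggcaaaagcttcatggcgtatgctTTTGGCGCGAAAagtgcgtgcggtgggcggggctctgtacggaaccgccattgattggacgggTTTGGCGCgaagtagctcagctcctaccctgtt
Rfc3, chr5:151651209-151651238, minus strand: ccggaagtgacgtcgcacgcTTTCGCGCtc
E2f3, chr13:29986064-29986099, minus strand: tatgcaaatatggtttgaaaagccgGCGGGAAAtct
Uhrf1, chr17:56304103-56304160, plus strand: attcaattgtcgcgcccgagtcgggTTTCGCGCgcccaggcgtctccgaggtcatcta

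The word began 27 bases before the start in Orc1, 10 in Rfc3 and 11 in E2f3, and lay farther off in Cdc6, at 138 bases, and in Uhrf1, at 185. Mcm5 and Mcm6 each held overlapping words on both strands, and Mcm6 a further one 47 bases before the start. In 41 of 49 member windows, bases 16 to 45 after the start lay in a GENCODE transcript of the gene. The windows of Mcm5 and Mcm6 were not among these, so their distances rest on the RefSeq start alone. Mcm3, Pold1 and Pole2 held theirs after the start only, and the stretch is not printed. Orc1 and Cdc6, the members with the largest rises, thus shared the word with Pold1, which fell, and with members not called. The latter were Orc3, Cdt1, Mcm7, Gins3, Pola1, Pold3, Lig1 and E2f2, of which Mcm7, Pola1, Lig1 and E2f2 were called higher without number 1. CCAAT, the word of NF-Y, was found in 24 members (63.2%) and 43.3% of tested genes, and CACGTG, bound by MYC and other E-box factors, in 7 (18.4%) against 12.2%. A word of the cell cycle homology region, TTTGAA or TTCGAA, was found in 9 (23.7%) against 16.4%. A match is a description of the letters and shows no binding.

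Transcripts of the origin recognition complex were changed unequally among its subunits, with 4 of 6 higher, 0 lower and a median log2 fold change of 0.76. The 4 are 66.7% of the subunits, beside 25.9% of all tested genes called higher. Orc1 (chromosome 4, 108579423 to 108614833, plus strand), the subunit whose abundance is known to vary over the cell cycle and a carrier of the E2F word, was measured at 4.11, 3.32 and 2.27 CPM unstimulated and 13.0, 15.4 and 17.3 CPM with CL097 in numbers 1, 2 and 3. All 3 CL097 libraries lay far above the unstimulated ones, and Orc1 rose 4.82-fold (log2 2.27, SE 0.25, adjusted p = 0.000165). Orc6, the smallest subunit, rose by 1.38 on the log2 scale (SE 0.13, adjusted p = 7.93e-05), and Orc2, a core subunit, rose 1.98-fold (log2 0.98, SE 0.072) with nearly the same difference in each number (1.00, 1.07 and 0.88). Orc4, one of the subunits of the ATP-binding family, was measured at 44.8, 48.9 and 55.3 CPM unstimulated and 77.8, 69.7 and 66.9 CPM with CL097. Its groups did not overlap and the difference was called (log2 0.53, adjusted p = 0.00402), but it was widest in number 1 and the fold change fell short of the limit without that number (log2 0.39, adjusted p = 0.0027). Orc3, a core subunit, had a log2 fold change of 0.34 (95% interval 0.18 to 0.50), below the limit. Orc5, another core subunit, was not called either (log2 -0.31, SE 0.19, adjusted p = 0.193), with differences of -0.88, -0.23 and 0.18 in the 3 numbers. A gene on the other strand overlaps 29.8% of the exon bases of Orc2. The study's methods name a stranded library kit, but the strand setting of the counting is not given in them, so whether reads of such a partner were counted with those of the gene is unknown.

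Of the loading factors Cdc6 rose the most of all members, while Cdt1 was not called. Cdc6 (chromosome 11, 98907801 to 98923940, plus strand), the ATPase that joins ORC to recruit MCM2-7, again with an E2F word, was measured at 7.44, 6.18 and 7.61 CPM unstimulated and 15.7, 58.5 and 98.4 CPM with CL097. The unstimulated libraries lay within a narrow range and the CL097 libraries spread over a wide one, at 2.11-fold, 9.47-fold and 12.9-fold the level of their unstimulated partner. The fitted rise was 6.37-fold (log2 2.67, SE 0.44, adjusted p = 0.00142), and without number 1 it was log2 3.47 (adjusted p = 2.05e-13). That smaller p-value rests largely on the variance trend shared over genes, since fewer pairs remain. The call for Cdc6 thus holds with all libraries and without number 1. Cdc6 was not called with the robust variance model or without the filter. Cdt1, which brings MCM2-7 to ORC and is destroyed once S phase begins, was measured at 119.5, 103 and 95.3 CPM unstimulated and 77.2, 110.3 and 123 CPM with CL097. These groups overlapped (log2 fold change -0.056, 95% interval -0.46 to 0.35), with a lower value after CL097 in number 1 and higher values in numbers 2 and 3.

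All 6 subunits of the MCM2-7 helicase had a positive log2 fold change, and 4 were called higher (median 0.58). The 4 are 66.7% of the subunits, beside 25.9% of all tested genes called higher. Mcm2 (chromosome 6, 88883474 to 88898780, minus strand), the subunit with a histone-binding tail, was measured at 125, 92.3 and 92.0 CPM unstimulated and 203, 232 and 263 CPM with CL097. The groups were well apart and Mcm2 rose 2.27-fold (log2 1.18, SE 0.14, adjusted p = 0.000294). Mcm3 was measured at 193, 129.5 and 132 CPM unstimulated and 213, 239 and 297 CPM with CL097, a narrow gap between the highest unstimulated and the lowest CL097 library, both of number 1, and rose 1.66-fold (log2 0.73, SE 0.17, adjusted p = 0.00761), a call that neither the fit with no variance trend nor the robust one made. For Mcm6 the values were 282, 221 and 247 CPM unstimulated and 316, 366 and 436 CPM with CL097, again without overlap, and the rise was 1.48-fold (log2 0.57, SE 0.12, adjusted p = 0.00509). Mcm5, which closes the ring beside Mcm2, had 145, 103 and 79.1 CPM unstimulated and 134, 165 and 185 CPM with CL097, and the unstimulated library of number 1 lay above the CL097 library of that number. The overlap did not prevent a call (log2 0.60, SE 0.22, adjusted p = 0.0431), but it was lost under 6 alternatives.

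For Mcm4 and Mcm7 the direction differed by number. Mcm4 was measured at 161, 113 and 115 CPM unstimulated and 138, 180.0 and 212 CPM with CL097 and Mcm7 at 147, 109 and 107 CPM unstimulated and 116, 149 and 194 CPM with CL097. In both genes number 1 was lower with CL097 and numbers 2 and 3 were higher. Neither was called with all libraries (adjusted p = 0.075 for Mcm4 and 0.181 for Mcm7), and both were called higher without number 1 (log2 0.78, adjusted p = 3.38e-07 for Mcm4; log2 0.66, adjusted p = 9.76e-06 for Mcm7). All 6 subunits were called higher in that fit, beside 26.4% of all tested genes. With fewer pairs its p-values rest largely on the variance trend shared over genes. Mcm5 lost its call without number 2 (adjusted p = 0.0989) or number 3 (0.237). Mcm6 lost its call by fold size without number 2 (log2 0.49) and without number 3 (log2 0.44). Thus 2 subunits, Mcm2 and Mcm3, were called without number 2 and without number 3, beside 23.8% and 24.1% of tested genes called higher. Without the filter on low values Mcm3, Mcm5 and Mcm6 were not called. Mcm2 was then the 1 subunit called, beside 14.0% of tested genes called higher. The summed erythroid markers were 50.4 and 77.7 CPM in the libraries of number 1, 993 and 1700 CPM in those of number 2 and 1132 and 2791 CPM in those of number 3.

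**Figure D2:**
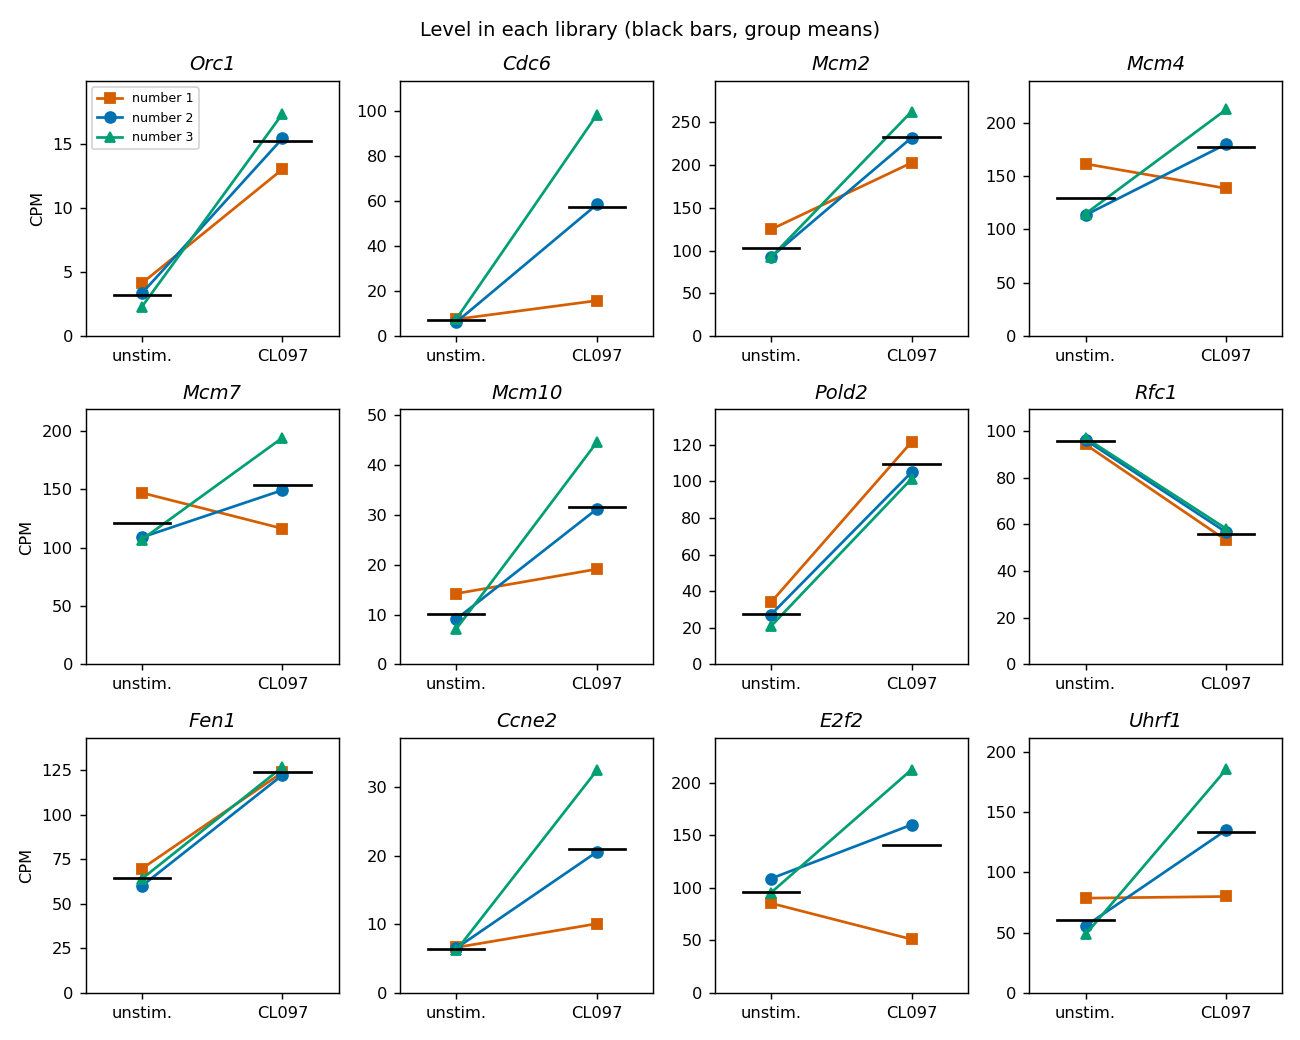
CPM of 12 replication genes in each library, unstimulated on the left and CL097 on the right of each panel, with lines joining libraries of 1 replicate number and black bars at the group means; every axis starts at 0. Pold2, Rfc1 and Fen1 moved alike in the 3 numbers, whereas Mcm4, Mcm7 and E2f2 were lower with CL097 in number 1 and higher in numbers 2 and 3.

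Of the factors that turn the loaded helicase into an active one, 4 of 6 rose and 0 fell (median 1.00). The 4 are 66.7% of these factors, beside 25.9% of all tested genes called higher. Mcm10 (chromosome 2, 4989714 to 5012791, minus strand), a scaffold needed to start unwinding, was measured at 14.2, 9.09 and 7.15 CPM unstimulated and 19.1, 31.1 and 44.5 CPM with CL097. Although the groups did not overlap, the rise was 1.35-fold in number 1 and 3.42-fold and 6.23-fold in numbers 2 and 3 (log2 1.61, SE 0.36, adjusted p = 0.00586 over all), a call lost with the robust variance model. Cdc45, a subunit of the active helicase, rose 2.10-fold (log2 1.07, SE 0.22, adjusted p = 0.00442). The GINS complex has 4 subunits, of which Gins1 rose 2.95-fold (log2 1.56, SE 0.36, adjusted p = 0.00707) and Gins2 rose 1.90-fold. Gins2 was measured at 5.92, 3.56 and 2.83 CPM unstimulated and 8.49, 7.29 and 6.66 CPM with CL097 (log2 0.93, SE 0.20, adjusted p = 0.0052), low throughout but without overlap. A gene on the other strand covers 67.3% of its exon bases, with the limit given for Orc2. Gins3 and Gins4 were not called, with 95% intervals of -0.11 to 0.75 and -0.32 to 0.43 for the log2 fold change. Without the filter none of the 6 was called, beside 14.0% of tested genes called higher.

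Of the 4 subunits of the enzyme that starts the new strands 1, in primase, rose and 0 fell. Prim1 (chromosome 10, 128015168 to 128030037, plus strand), the catalytic subunit of primase, was measured at 17.3, 16.1 and 14.2 CPM unstimulated and 23.7, 29.4 and 31.3 CPM with CL097, with no overlap, and rose 1.77-fold (log2 0.82, SE 0.15, adjusted p = 0.00197). Its partner Prim2 was not called (log2 -0.17, SE 0.23, adjusted p = 0.53), with differences of -0.89, -0.10 and 0.47 in numbers 1, 2 and 3. Pola1, the catalytic subunit of polymerase alpha, gave -0.14, 0.62 and 0.81 (adjusted p = 0.065) and was called higher without number 1 (log2 0.71, adjusted p = 3.02e-05). Pola2, its accessory subunit, had a log2 fold change of 0.29 (95% interval 0.089 to 0.49), short of the limit.

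Subunits of 1 replicative polymerase moved in opposite directions. Pold2 (chromosome 11, 5872180 to 5878292, minus strand), an accessory subunit of polymerase delta, was measured at 33.9, 27.2 and 20.9 CPM unstimulated and 122, 105 and 101 CPM with CL097. Each CL097 library lay at 3.58-fold to 4.86-fold its unstimulated partner, and Pold2 rose 4.07-fold (log2 2.02, SE 0.10, adjusted p = 4.55e-06), called under every alternative run. Pold1 (chromosome 7, 44532746 to 44548849, minus strand), the catalytic subunit of the same enzyme, was measured at 44.9, 39.7 and 36.8 CPM unstimulated and 31.1, 27.4 and 24.3 CPM with CL097. It was lower in each number and fell by 0.56 on the log2 scale (SE 0.087, adjusted p = 0.00106), also called under every alternative. The intervals of the log2 fold change, -0.76 to -0.35 for Pold1 and 1.78 to 2.27 for Pold2, do not overlap. Pold3, a further subunit, which binds Pcna, was not called (log2 0.32, 95% interval 0.13 to 0.50). Pole, the catalytic subunit of polymerase epsilon on the leading strand, rose 1.68-fold (log2 0.75, SE 0.16, adjusted p = 0.00465). Pole2, its accessory subunit, was called higher (log2 0.63, SE 0.23, adjusted p = 0.0414), and lost the call without number 2 (adjusted p = 0.065) or number 3 (adjusted p = 0.223).

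The clamp rose while its loader split. Pcna, the ring that tethers polymerases to DNA, rose 1.52-fold (log2 0.60, SE 0.10, adjusted p = 0.00136), and its log2 fold change fell to 0.49 without number 3, short of the limit. Rfc4 (chromosome 16, 23113943 to 23127737, minus strand), a small subunit of the clamp loader, was measured at 11.8, 8.89 and 9.71 CPM unstimulated and 17.3, 18.3 and 21.4 CPM with CL097, without overlap, and rose 1.88-fold (log2 0.91, SE 0.15, adjusted p = 0.00153). Rfc3, another small subunit, was just past the limit (log2 0.50, SE 0.10, adjusted p = 0.00355), and its fold change was under it without number 2 (log2 0.48) or number 3 (0.48), with cyclic loess or with a pseudocount. Rfc1 (chromosome 5, 65261850 to 65335670, minus strand), the large subunit of the replicative loader, was measured at 94.3, 96.2 and 97.1 CPM unstimulated and 53.2, 56.7 and 58.2 CPM with CL097. Its libraries were tightly grouped in each condition, and Rfc1 was 1.71-fold lower (log2 -0.78, SE 0.07, adjusted p = 6.46e-05). Rfc2, a small subunit, was 1.59-fold lower (log2 -0.67, SE 0.11, adjusted p = 0.00144), with differences of -0.93, -0.68 and -0.42. Rfc5 was not called (95% interval -0.35 to 0.32). The split of 3 higher and 2 lower in this role group, which counts Pcna, was also found without number 1, while without number 3 Rfc4 was the 1 member called higher.

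Fen1 (chromosome 19, 10199132 to 10204169, minus strand), the nuclease that trims the flap of each Okazaki fragment, was measured at 69.6, 59.9 and 63.9 CPM unstimulated and 124, 122 and 127 CPM with CL097. Its 3 pairs moved alike (0.83, 1.03 and 0.99 log2), and Fen1 rose 1.93-fold (log2 0.95, SE 0.074, adjusted p = 3.05e-05) under every alternative run. Genes on the other strand cover 84.2% of its exon bases, with the same limit. Lig1, the ligase that seals the same nicks, gave differences of -0.53, 0.80 and 1.29 and was called under a single alternative, without number 1 (log2 1.04, adjusted p = 2e-07). Of the single-strand binding proteins, Rpa1 (chromosome 11, 75298166 to 75348324, minus strand), the large subunit, was measured at 205, 155 and 153 CPM unstimulated and 108, 109.7 and 133 CPM with CL097. All CL097 libraries lay below all unstimulated ones and Rpa1 fell by 0.54 on the log2 scale (SE 0.13, adjusted p = 0.00763), a call lost without number 1 (log2 -0.35, adjusted p = 0.00287), without the variance trend and without the filter. Rpa2 and Rpa3 were not called, with 95% intervals of 0.11 to 0.68 and -0.20 to 0.36, and Rpa2 was called higher without number 1 (log2 0.55, adjusted p = 0.000278).

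Of the G1/S regulators, 4 of 5 rose (80.0%, beside 25.9% of all tested genes) and 0 fell (median 1.03). Without number 3, 2 rose, beside 24.1% of tested genes. Ccne2 (chromosome 4, 11191351 to 11204779, plus strand), one of the cyclins that activate Cdk2 for S phase entry, was measured at 6.63, 6.53 and 6.21 CPM unstimulated and 10.1, 20.6 and 32.5 CPM with CL097. The unstimulated libraries differed by less than 0.5 CPM, the CL097 libraries all lay above them, that of number 1 the nearest, and Ccne2 rose 2.93-fold (log2 1.55, SE 0.30, adjusted p = 0.00318). Ccne1, the other E cyclin, was 1.11-fold its unstimulated level in number 1 and 3.05-fold and 5.18-fold in numbers 2 and 3 (log2 1.38, SE 0.37, adjusted p = 0.0133), and its call was lost without number 3 (adjusted p = 0.0802). E2f1, an activator of S phase genes, also differed least in number 1 (0.066, 1.29 and 1.74; adjusted p = 0.0164), with the call lost without number 2 (adjusted p = 0.0587) or number 3 (0.105). Both Ccne1 and E2f1 also lost their calls without the filter, with no variance trend and with the robust model, and Ccne2 without the filter. E2f3 (chromosome 13, 29906575 to 29986063, minus strand), also an activator, was measured at 10.2, 9.52 and 13.2 CPM unstimulated and 16.7, 15.8 and 18.8 CPM with CL097, without overlap, and rose 1.57-fold (log2 0.65, SE 0.12, adjusted p = 0.00276) with like differences in each number (0.71, 0.73 and 0.51).

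E2f2, the remaining activator E2F, was measured at 85.4, 109 and 95.4 CPM unstimulated and 51.1, 160.1 and 213 CPM with CL097. Number 1 was lower with CL097, numbers 2 and 3 were higher, the groups overlapped, and no call was made (adjusted p = 0.377) unless number 1 was left out (log2 0.86, adjusted p = 1.69e-06). Uhrf1 (chromosome 17, 56303321 to 56323486, plus strand), which recognises hemimethylated DNA behind the fork and recruits Dnmt1, was measured at 78.6, 55.4 and 48.5 CPM unstimulated and 79.9, 135 and 185 CPM with CL097. Its 2 libraries of number 1 were nearly equal, those of numbers 2 and 3 were 2.44-fold and 3.82-fold apart, and the fitted rise was 2.12-fold (log2 1.08, SE 0.31, adjusted p = 0.0168). Without number 3 it was not called (adjusted p = 0.0968), nor without the variance trend, with the robust model or without the filter.

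The members fell along a range from those that moved alike in the 3 numbers to those that moved mainly in numbers 2 and 3. In 11 members the 3 differences spanned at most 0.5 on the log2 scale: Orc2, Orc3, Pola2, Pold1, Pold2, Pold3, Rfc1, Rfc3, Fen1, Rpa3 and E2f3. At the other end, the mean difference in numbers 2 and 3 exceeded that in number 1 by over 1 in 12 members, which were Cdc6, Mcm5, Mcm10, Cdc45, Gins1, Prim2, Lig1, Ccne1, Ccne2, E2f1, E2f2 and Uhrf1. In 7 members the value with CL097 was lower in number 1 and higher in numbers 2 and 3, a pattern found in 4.02% of all tested genes. The same held for 18 of 22 genes of G2 and mitosis, whose median differences were -0.28, 0.87 and 1.36 in numbers 1, 2 and 3. Before stimulation number 1 held more of most replication transcripts, by a median of 0.27 on the log2 scale over the mean of numbers 2 and 3 in the deposited values. That comparison is between numbers, and any adjustment made per number before deposit would enter it. Median differences of erythroid markers were 0.93, 1.58 and 1.93. The part of erythroid cells in this range was not tested, and with 1 pair per number the difference between numbers has no replicate of its own.

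**Figure D3:**
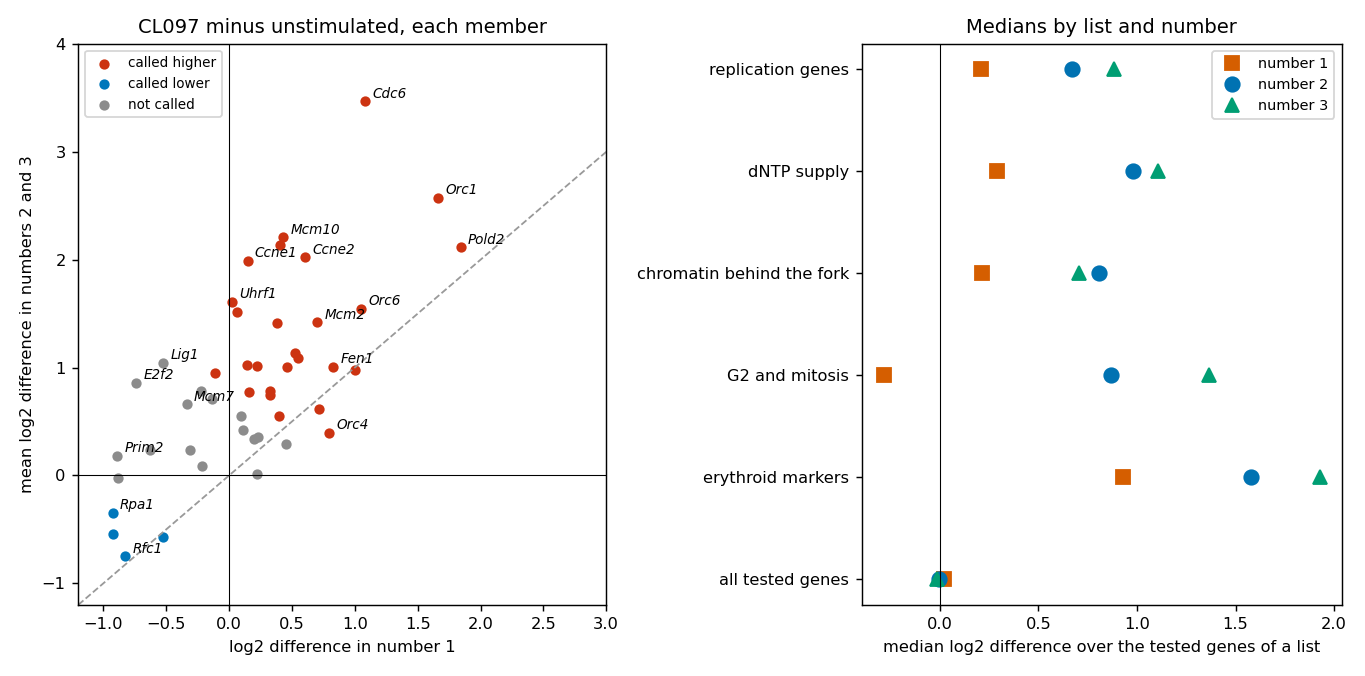
Left, log2 difference (CL097 minus unstimulated) of each replication gene in number 1 against its mean in numbers 2 and 3, coloured by call, with a dashed line of equality; 40 genes had their smallest difference in number 1. Right, median difference over the tested genes of each list by number, where G2 and mitosis genes run from -0.28 in number 1 to 1.36 in number 3 and all tested genes stay near 0 in each.

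Transcript levels of the subunits were also compared per length. In CPM per kb of annotated exons (SD, n = 3), Orc1 was the lowest of the ORC subunits unstimulated, at 0.929 ± 0.265, against 17.2 ± 0.304 for Orc3, the highest, and 16.9 ± 1.96 for Orc2, whose range held that of Orc3. With CL097 Orc1 reached 4.38 ± 0.623, and Orc5, at 2.84 ± 0.631, became the lowest while Orc2 became the highest at 33.4 ± 2.44. The MCM2-7 subunits, which assemble in equal number, lay closer together, from 14.8 ± 2.70 for Mcm2 to 53.7 ± 6.56 for Mcm6 unstimulated, a ratio of 3.62, and from 33.4 ± 4.31 to 79.8 ± 12.9 with CL097, a ratio of 2.39. Cdc6 stood at 1.35 ± 0.150 unstimulated beside 33.8 ± 3.92 for Cdt1. Subunits of polymerase delta spread from a ratio of 1.73 between the highest and the lowest to one of 10.2, as Pold2 went to 57.6 ± 5.66 and Pold1 to 5.68 ± 0.708. Gins4, at 23.5 ± 4.63, exceeded the other GINS subunits unstimulated, of which Gins2 was the lowest at 1.00 ± 0.394. These levels divide by all exons of a gene and depend on which transcripts the cells use. Annotated exons span 6.96 kb in Mcm2 and 4.67 kb in Mcm6, and 4.10 kb in Gins2 and 1.35 kb in Gins4. The levels are of RNA and do not measure the amount of a subunit.

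**Figure D4:**
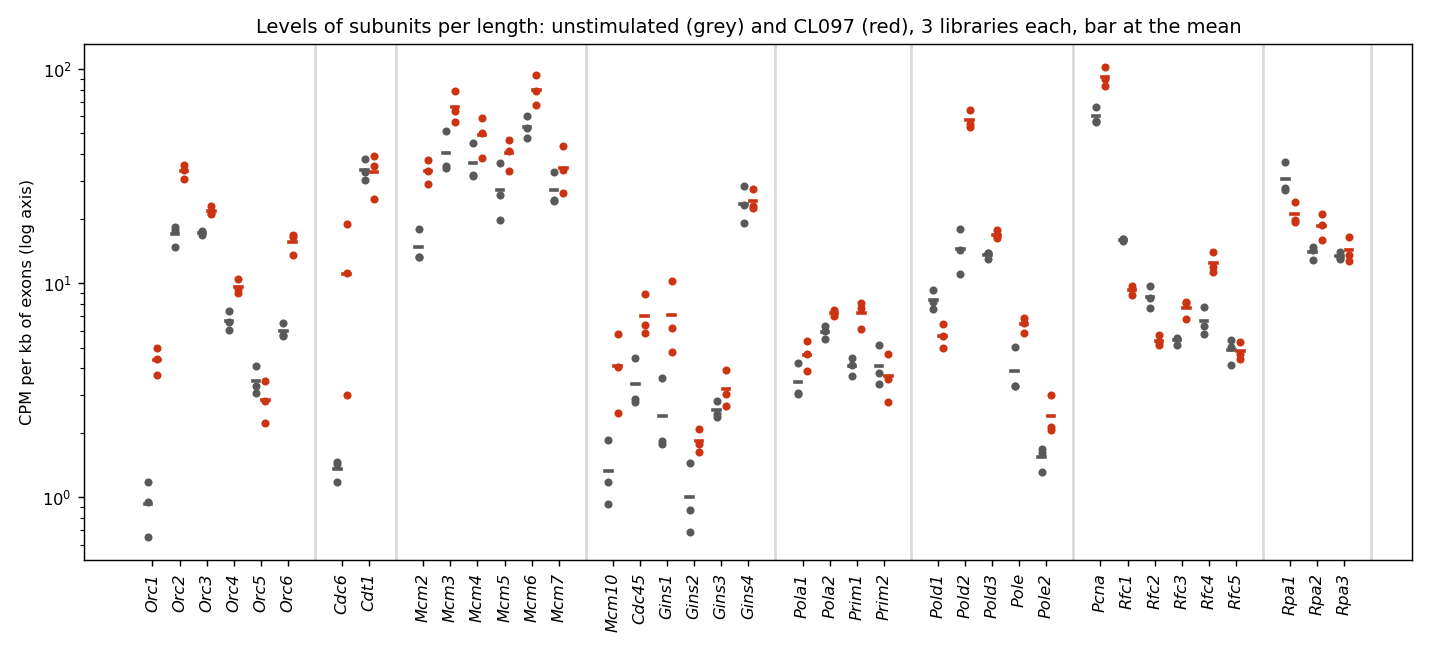
CPM per kb of annotated exons, on a log axis, of 38 subunits grouped by complex; grey points are the 3 unstimulated and red points the 3 CL097 libraries, and bars their means. Orc1 and Cdc6 start among the lowest values and Pold2 separates from Pold1 and Pold3 with CL097.

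Other genes of the pathway were read from lists of their own, each to be set beside the 25.9% of all tested genes called higher and the 25.8% called lower. Of 34 further origin and fork factors 14 rose and 3 fell (41.2% and 8.82%, median 0.39). Ticrr, which brings Cdc45 to origins, rose 2.52-fold (log2 1.34, SE 0.26), and Clspn, a fork protein of the replication checkpoint, rose 2.33-fold (log2 1.22, SE 0.40) with differences of -0.13, 1.46 and 2.33. The falls were Pold4, the smallest subunit of polymerase delta, from 95.4 ± 16.4 to 30.8 ± 3.16 CPM (log2 -1.62, SE 0.091, adjusted p = 6.79e-06), Tonsl and Donson. Clspn was not called without number 2 or number 3, nor Donson without number 2. Of 14 genes of chromatin assembly and upkeep behind the fork 9 rose (64.3%) and 0 fell (median 0.63). Hat1, a histone acetyltransferase, and Nasp, a histone chaperone, rose 2.10-fold and 1.86-fold with like differences in the 3 numbers (1.01, 1.15 and 1.04; 0.86, 0.90 and 0.93), and Chaf1b, a chromatin assembly factor subunit, rose 1.80-fold (log2 0.85, SE 0.23), a call lost without number 2 or number 3.

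Among 16 genes of dNTP supply 10 rose and 3 fell (62.5% and 18.8%, median 0.93). Tyms, which makes dTMP, rose from 7.36 ± 2.61 to 35.1 ± 3.50 CPM (log2 2.30, SE 0.21, adjusted p = 6.98e-05), and Dctpp1, which clears unusual dCTP derivatives, rose 4.07-fold (log2 2.02, SE 0.092). Samhd1, which degrades dNTPs, was the largest fall of the list, from 677 ± 129 to 107 ± 23.7 CPM (log2 -2.67, SE 0.09, adjusted p = 1.21e-06), and the salvage kinase gene Dck and the p53-inducible subunit gene Rrm2b fell as well. In the RB-E2F list 12 of 29 rose and 6 fell, or 3 fell without number 1 (41.4% and 20.7% with all libraries, median 0.47). The rises were led by Mybl2, from 10.2 ± 1.73 to 67.4 ± 6.09 CPM (log2 2.74, SE 0.14), Myc (6.67-fold) and the G1 kinase gene Cdk6 (4.94-fold). The falls called in both fits were Cdkn1b, Rbl2 and Rb1 (log2 -2.22, -1.97 and -0.88 with all libraries). Rbl1, Tfdp2 and Cdkn2d fell with all libraries but were not called without number 1. Of 22 genes of G2 and mitosis 7 rose (31.8%, near the 25.9% of all tested genes) and 0 fell with all libraries, and 17 rose without number 1, 2 without number 2 and 1 without number 3. Its called genes with the largest changes were Cdk1 (0.24, 1.57 and 1.78 in numbers 1, 2 and 3), Prc1 (0.026, 1.53 and 1.96) and Birc5 (-0.084, 1.29 and 2.13), of which Prc1 lost its call without number 3 and Birc5 without number 2 or 3.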

How the data were processed

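Poly(A) RNA of bead-purified splenic B cells gave 6 libraries, 3 unstimulated and 3 with CL097. Per the study's methods and the submitters' processing notes, the authors trimmed reads (Trim Galore 0.6.5), aligned them to mm10 (STAR 2.6.1a), counted genes (featureCounts, Subread 2.0.1) and deposited log2 CPM from voom with quantile normalization in limma. The library kit was stranded per those methods, and the annotation and strand setting of the counting: not given in the sources used here. The methods state a target depth but the depth reached per library is unknown, so no counting interval is given, and quantile normalization hides changes in total RNA per cell. Both libraries of a number held equal values for 2655 to 3108 of 17935 non-constant genes, against 347 to 396 in other pairs, and no source used here describes a step per number that would give this.

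Genes with at least 0.5 CPM in at least 3 libraries entered limma 3.58.1 (under R 4.3.3), without a pseudocount, with terms for group and replicate number and a variance trend. Cells came from 3 mice per the treatment protocol in the labels, but whether a number is a mouse is not said. Deviations from group means correlated at 0.568, 0.326 and 0.458 within numbers 1, 2 and 3 across 11844 genes, all over 0.1. Pairing by number was set in advance for this comparison, and numbers were left out as pairs. The equal values within a number may enter these correlations, so they are no independent check of the pairing. Between different numbers the correlations ran from -0.485 to 0.209. Those between numbers 2 and 3, 0.172 and 0.209, were also over 0.1, so that limit alone does not tell pairs from other combinations. Two-sided p-values rest on the spread between these 3 pairs, which may be technical, and on the variance trend shared over genes. The fit draws the spread of each gene toward that trend. With a number left out fewer pairs remain, so the p-values of those fits rest more on the trend and do not measure the spread between pairs alone. The fit was tested on simulated data.

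Members, lists and tests were chosen with earlier results of these data known. Values in every library are given for Mcm2 to Mcm7 and, in each other role group, the called members with the highest and lowest log2 fold change; Cdt1 and E2f2 were added after their values were seen. In related lists the 3 called genes with the largest change and at least 1 CPM are named, with genes behind small counts. Positions and exons are from GENCODE M21 (GRCm38, also called mm10), counted from 1, and promoter sequences from RefSeq (GRCm38.p6). Exons of 14 members overlap those of a gene on the other strand, with the limit given for Orc2. They are Orc1, Orc2, Orc4, Orc6, Mcm7, Cdc45, Gins2, Pole, Rfc2, Rfc4, Rfc5, Fen1, Lig1 and Ccne2.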

Additional observations from a re-analysis of the deposited data

How the results depend on the processing

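The count of members called higher was 26 and that called lower 4. Both were the same, with the same genes, without the replicate block, with at least 2 CPM in 3 libraries as the filter and after median centring. Without the filter on low values, which tests 17935 genes, 9 members were higher and 2 lower. Calls lost were Orc4, Cdc6, Mcm3, Mcm5, Mcm6, Mcm10, Cdc45, Gins1, Gins2, Prim1, Pole, Pole2, Pcna, Rfc2, Rpa1, Ccne1, Ccne2, E2f1 and Uhrf1. The cause was not tested. The other settings gave 19 to 25 higher and 3 or 4 lower: 25 and 4 with log2(CPM + 1), 24 and 4 with cyclic loess, 20 and 3 without the variance trend and 19 and 4 with the robust variance model. With 1 number left out, 18 to 31 were higher and 3 or 4 lower, and the median log2 fold change was 0.46 to 0.78. Over all tested genes 2514 to 3126 were higher and 2441 to 3157 lower across the alternatives, against 3064 and 3057. No called member changed direction under any alternative. Of those not called, 5 changed sign with a number left out, with log2 fold changes of -0.27 to 0.23 for Cdt1, -0.49 to 0.18 for Prim2, -0.18 to 0.24 for Gins4, -0.20 to 0.086 for Rfc5 and -0.092 to 0.86 for E2f2. No paired call differed from the unpaired one for any member, while the count of erythroid markers called higher went from 9 with the replicate block to 0 without. With 3 pairs, members below the fold limit may have changed by amounts the 95% intervals allow.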
